A study of Mus musculus with 3 samples.

Results

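The genes examined here encode the enzymes that make, destroy and read out cyclic AMP (cAMP): the adenylyl cyclases, the cyclic nucleotide phosphodiesterases, the subunits of cAMP-dependent protein kinase (PKA) and the A-kinase anchoring proteins. They were chosen by symbol among the protein-coding genes of the GENCODE M21 mouse annotation, as *Adcy* with a number, *Pde* with a number and a letter, the 6 PKA subunit genes, and *Akap* with a number and an optional letter. This gave 56 of 21925 protein-coding genes: 10 adenylyl cyclases, 24 phosphodiesterases, 6 PKA subunits and 16 anchors. For each gene, the Ad4BP/SF-1 peaks in the gene body or within 10 kb on either side were counted. The symbol rule also takes in phosphodiesterases that act on cyclic GMP, such as *Pde5a*, *Pde9a* and the retinal *Pde6* genes.

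Adenylyl cyclases convert ATP to cAMP when a G-protein-coupled receptor is engaged, or, for the soluble cyclase, in response to bicarbonate. cAMP releases the catalytic subunits of PKA from its regulatory subunits, anchoring proteins hold the kinase at particular membranes and organelles, and phosphodiesterases hydrolyse the nucleotide and so end the signal. In Leydig cells, luteinising hormone acts through this route to drive testosterone synthesis, and Ad4BP/SF-1 (*Nr5a1*) is the nuclear receptor that occupies the steroidogenic genes of these cells.

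Ad4BP/SF-1 was measured by chromatin immunoprecipitation and sequencing (ChIP-seq) in Leydig cells that came from ICR males at 9 weeks of age and were kept in culture on collagen, after vehicle or after cAMP. There was 1 ChIP library per condition, made from cells pooled over animals, and input DNA that was not used here. The cAMP compound, its dose and the time of exposure are not given in the sources used here. Each library was deposited as a list of peaks on mm10, with 5721 peaks for vehicle and 4025 for cAMP, and each peak carries a MACS score, that is, −log10 of the p-value multiplied by 10. The lists begin at scores of 50 and 50.01, and the median scores were 72.39 and 67.85. These lowest scores are stricter than the p-value threshold stated in the methods, so weaker peaks that met that threshold are in none of the counts of genes with and without a peak. Because there were no replicates, no difference between the lists has a replicate check and none was tested. Read depth is unknown, the score rises with depth, and a gene without a listed peak is not shown to be unbound. The lists carry no expression, so the cell type could not be checked against markers. Intervals given below are exact 95% intervals and cover counting error only.

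Ad4BP/SF-1 peaks lay at 20 of the 56 genes in vehicle, or 35.7% (23.4% to 49.6%), where 19.3% of all protein-coding genes had a peak. In cAMP they lay at 17, or 30.4% (18.8% to 44.1%), against 13.9% of all genes. The vehicle list is the longer, and with as many of its top peaks as the cAMP list holds, 15 genes had a vehicle peak, against 14.7% of all genes, so the order of the lists was reversed. Of the 56 genes, 12 had a peak in both lists, 21.4% against 10.1%, and 25 had a peak in either, 44.6% (31.3% to 58.5%) against 23.1%. In either list these were 4 of the 10 adenylyl cyclases, 11 of the 24 phosphodiesterases, 4 of the 6 PKA subunits and 6 of the 16 anchors. The intervals of the groups overlapped, from 12.2% to 73.8% for the cyclases to 22.3% to 95.7% for the PKA subunits.

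The genes are long, and long genes have more room for peaks. Their median length was 89.2 kb, against 17.4 kb over all protein-coding genes, and the median was 91.6 kb for those with a peak and 88.2 kb for those without. When each gene was given the share of its own length class among all genes, 19.6 of the 56 genes, or 34.9%, came out with a peak in either list, against the 25 counted. For vehicle the figures were 16.1 against 20 and for cAMP 12.6 against 17, and the counted shares had intervals that held the class-based shares of 28.7% and 22.6%. The excess over the class-based count, 25 against 19.6, was thus smaller than the excess over the background share. For peaks in either list, the share below 200 kb was above that of all genes in each of 4 length classes, as for the 7 of 11 genes of 100 to 200 kb against 43.2%. At 200 kb and over it was lower, at 5 of 13 genes against 48.6%. In vehicle alone, 0 of the 6 genes under 20 kb had a peak, against 12.9% of all genes of that class, and in cAMP alone 2 of the 6 had, against 8.44%.

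**Figure D1:**
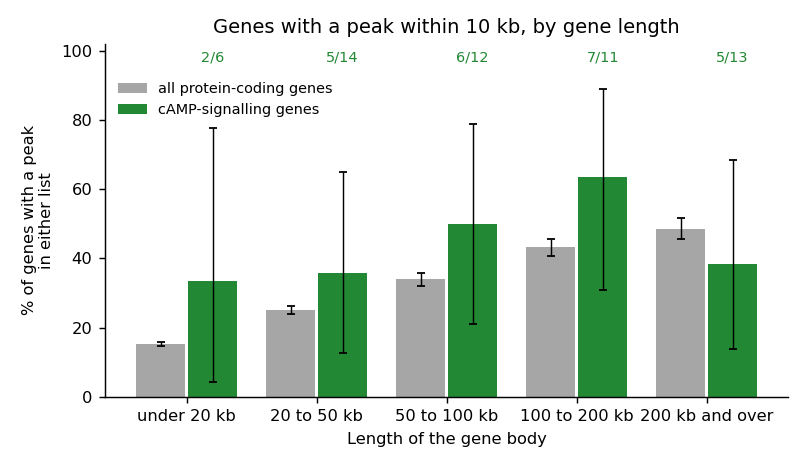
Percentage of genes with a peak in either list within 10 kb (vertical axis) by length of the gene body (horizontal axis), for all protein-coding genes (grey) and the cAMP-signalling genes (green, with counts above); bars start at 0 and error lines are exact 95% binomial intervals. The green bars stand above the grey ones in the 4 classes under 200 kb and below at 200 kb and over, and every green interval takes in the grey bar.

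The windows of the 56 genes held 32 peaks in vehicle and 30 in cAMP, which is 3.25 peaks per Mb (2.23 to 4.59) and 3.05 per Mb (2.06 to 4.35). Windows of all protein-coding genes held 3.42 and 2.33 per Mb, and those of genes of 100 kb and over 2.35 and 1.63. The PKA subunit genes had the highest density of the groups, with 11.03 per Mb in vehicle (4.05 to 24.0) and 12.9 in cAMP (5.18 to 26.5), which rest on 6 peaks at 4 genes and 7 peaks at 3 genes. The anchors had 4.73 and 5.26 per Mb, the cyclases 2.72 in both lists and the phosphodiesterases 2.20 and 1.52. Several peaks at the same gene were common: 8 of the 56 genes had 2 or more in vehicle, 14.3% against 4.97% of all genes, and 10 had in cAMP, 17.9% against 2.76%. Those shares of all genes are not adjusted for length, and the shares of the genes' own length classes gave 5.55 in vehicle and 3.42 in cAMP. Among the 10 in cAMP, the neighbours *Akap8* and *Akap8l* each reached 2 only through the same peak. That peak scored 52.56 and was counted at both. Over both lists together, *Akap2* had the most peaks, 4 in each list, followed by *Pde10a* with 3 in each and *Pde5a* with 3 and 2. In cAMP alone, *Prkar2a* also had 3.

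Overlapping peaks of the lists were joined into 47 sites, of which 15 were in both lists, 17 in the vehicle list only and 15 in the cAMP list only. The sites in both lists had higher scores. Their median was 85.49 in vehicle (65.36 to 204.82) and 91.13 in cAMP (61.72 to 266.21), whereas the sites of the vehicle list only had a median of 65.75 (51.17 to 112.68) and those of the cAMP list only 57.35 (50.01 to 92.33). The same held in the whole lists, with medians of 96.58 against 64.99 in vehicle and 84.11 against 58.72 in cAMP. A site in both lists had to reach the lowest score of each, which by itself favours higher scores. Of the vehicle peaks at these genes 46.9% (29.1% to 65.3%) overlapped a cAMP peak, against 37.9% of the whole list, and of the cAMP peaks 50% (31.3% to 68.7%) overlapped a vehicle peak, against 53.8%.

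**Figure D2:**
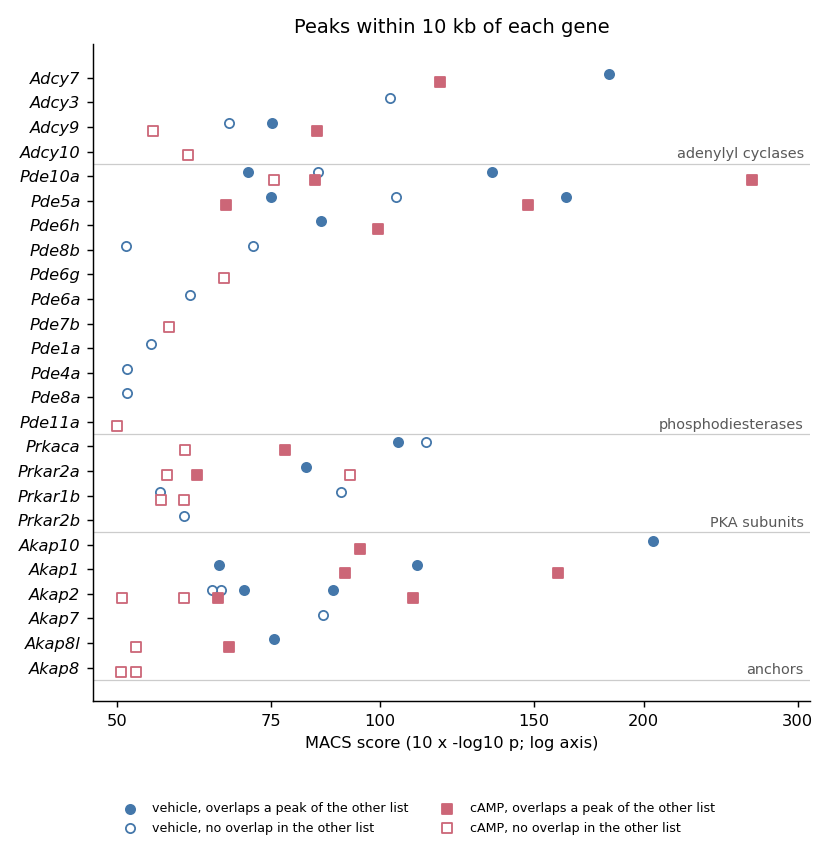
MACS score (horizontal axis, log scale) of every peak within 10 kb of the 25 genes that had one, by group, for vehicle (blue circles) and cAMP (red squares); filled symbols overlap a peak of the other list and open ones do not. The highest scores are 266.21 at *Pde10a* in cAMP and 204.82 at *Akap10* in vehicle, and the open symbols gather at lower scores, up to 112.68 at *Prkaca*.

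The sequence is shown first for the 11 highest-scoring sites of either list, with and without the Ad4BP/SF-1 consensus, read here as TCAAGGTC, TCAAGGCC, CCAAGGTC or CCAAGGCC on either strand. Each run is reference sequence of mm10 from the RefSeq GRCm38.p6 genome, 5′ to 3′ on the strand named, with the consensus copy nearest the peak centre and 40 bases on either side, and capitals mark the copies. The first *Pde5a* intron 1 site has no copy, so the bases around the centre of its cAMP peak are given, and at *Prkaca* intron 1 the capitals mark the shorter core CAAGGTC, which is far from the centre. The next site by score, at *Adcy3* with 102.70, holds no copy and lies in a 3′ UTR exon, and its sequence is not shown.
*Pde10a* intron 1, chr17:8810377-8810464, minus strand: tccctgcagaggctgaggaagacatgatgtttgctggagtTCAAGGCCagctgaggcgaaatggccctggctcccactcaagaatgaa
*Pde10a* 5′ part, chr17:8562237-8562324, plus strand: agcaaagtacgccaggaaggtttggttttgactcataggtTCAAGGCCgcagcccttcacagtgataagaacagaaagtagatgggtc
*Pde5a* intron 3, chr3:122774013-122774100, plus strand: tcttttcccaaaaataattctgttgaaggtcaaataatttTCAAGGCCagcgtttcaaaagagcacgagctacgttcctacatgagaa
*Pde5a* intron 1 first site, chr3:122733996-122734076, plus strand: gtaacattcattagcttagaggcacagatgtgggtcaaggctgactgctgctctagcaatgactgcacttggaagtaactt
*Pde5a* intron 1 second site, chr3:122734493-122734580, minus strand: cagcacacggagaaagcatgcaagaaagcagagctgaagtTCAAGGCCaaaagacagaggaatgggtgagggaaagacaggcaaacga
*Adcy7* intron 12, chr8:88316287-88316374, minus strand: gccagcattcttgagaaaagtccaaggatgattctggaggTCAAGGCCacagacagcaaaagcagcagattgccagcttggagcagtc
*Prkaca* upstream, chr8:83971294-83971381, minus strand: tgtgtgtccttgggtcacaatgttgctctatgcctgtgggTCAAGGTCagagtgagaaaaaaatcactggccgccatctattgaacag
*Prkaca* intron 1, chr8:83978174-83978260, minus strand: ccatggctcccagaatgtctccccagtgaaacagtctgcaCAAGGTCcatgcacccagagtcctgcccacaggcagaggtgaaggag
*Akap10* upstream, chr11:61931090-61931177, plus strand: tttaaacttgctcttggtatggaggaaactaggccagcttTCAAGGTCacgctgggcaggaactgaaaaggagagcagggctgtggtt
*Akap2*, chr4:57762579-57762666, minus strand: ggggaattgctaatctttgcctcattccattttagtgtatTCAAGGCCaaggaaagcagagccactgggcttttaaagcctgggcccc
*Akap1* intron 1, chr11:88847401-88847488, minus strand: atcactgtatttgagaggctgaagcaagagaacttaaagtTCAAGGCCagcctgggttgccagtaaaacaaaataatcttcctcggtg

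A consensus copy was present in 26 of the 32 vehicle peaks, 81.2% (63.6% to 92.8%), and in 23 of the 30 cAMP peaks, 76.7% (57.7% to 90.1%). The whole lists had 80.4% and 77.1%, and both values lay within the intervals of the cAMP-signalling genes. Stretches of equal width starting 2 kb outside the peaks held a copy in 7.81% of 64 cases for vehicle and in 15.0% of 60 for cAMP. The copies lay near the peak centres, at a median of 44 bp for the 31 copies in vehicle and 35 bp for the 28 in cAMP. Of the copies, 12 in vehicle (38.7%, 21.85% to 57.8%) and 7 in cAMP (25%, 10.7% to 44.9%) lay in sequence that the reference marks as repeat. Over the lists the shares were 36.1% and 40.9%, within those intervals. The copies shown for *Pde10a* intron 1, the second *Pde5a* intron 1 site and *Akap1* intron 1 are among those in repeats. The full cAMP response element (CRE), TGACGTCA, which CREB binds, was in 0 of 32 vehicle peaks, with an upper exact bound of 10.9%, and in 1 of 30 cAMP peaks, against 0.699% and 0.770% of the lists. The AP-1 sequence, TGAGTCA or TGACTCA, was in 25% (11.5% to 43.4%) and 20% (7.71% to 38.6%) of the peaks, against 16.1% and 17.3%. Both intervals held the value of the list.

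Among the phosphodiesterases, *Pde10a*, which hydrolyses both cAMP and cyclic GMP, held the highest-scoring peak of the cAMP list at any of the 56 genes. This peak, chr17:8810139-8810696 in intron 1 of the principal transcript and 7.39 kb after its start, scored 266.21 in cAMP and ranked 63 of the 4025 peaks. The vehicle peak over it scored 70.61, above 47.4% of its list, whereas the cAMP peak was above 98.4%. The score was 3.77 times as high in cAMP, at a site described because of its high cAMP score, which by itself favours a high ratio, while the median ratio of cAMP to vehicle score was 0.88 over all overlapping pairs of peaks. Its consensus copy lay 4 bp from the centre of the cAMP peak.

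The gene is 461.28 kb long and had 3 further sites, all before the start of the principal transcript but within the gene's span. At the site of chr17:8561975-8562653, 35.5 kb after the nearest *Pde10a* start and 4.56 kb from that of the gene model *Gm17087*, the order was the other way round, with 134.27 in vehicle and 84.23 in cAMP. A peak at chr17:8657624-8658147 was in the vehicle list only, with a score of 84.83 and no consensus copy. A peak at chr17:8792544-8793071 was in the cAMP list only, with a score of 75.55, 8.89 kb before the principal start. It had no Ad4BP/SF-1 copy and was the peak with the full CRE, 4 bp from its centre, which is in capitals here.
*Pde10a* CRE, chr17:8792767-8792854, plus strand: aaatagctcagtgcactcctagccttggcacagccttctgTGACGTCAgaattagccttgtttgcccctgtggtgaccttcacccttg

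*Pde5a*, the cyclic-GMP-specific enzyme, had 3 sites in its 130.43 kb, and they differed in direction. In intron 1, 4.47 kb after the start, the peak scored 75.10 in vehicle and 147.60 in cAMP, and it held no consensus copy in either list. A neighbouring peak at chr3:122734295-122734890, the second intron 1 site of the sequences above, scored 104.23 in vehicle and had no cAMP peak over it, although the cAMP peak beside it ended 63 bp away. In intron 3, 44.5 kb after the start, the scores were 162.96 in vehicle and 66.69 in cAMP. Both sites were described because of these high scores, which by itself favours unequal scores. *Pde6h*, the inhibitory subunit of the cone photoreceptor enzyme, had a peak in both lists 0.493 kb from a start site, with 85.49 in vehicle and 99.43 in cAMP.

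The other 8 phosphodiesterase genes with a peak had it in only 1 of the lists, at scores of 71.61 or lower. *Pde8b*, a high-affinity cAMP-specific enzyme known to restrain steroid synthesis, had 2 vehicle peaks: 71.61 in intron 1 and 51.17 across the outermost start of the gene. The latter, chr13:95250110-95250560, was centred 1 bp from the start and overlapped the RefSeq promoter, which holds the copy CCAAGGCC. Its relative *Pde8a* had a vehicle peak of 51.31 in intron 1, and *Pde4a*, another cAMP-specific enzyme, had 51.31 at 2.69 kb past its end. The calcium- and calmodulin-dependent *Pde1a* had 54.72 in vehicle and the rod photoreceptor gene *Pde6a* 60.61. In the cAMP list only were *Pde6g*, the rod inhibitory subunit, with 66.25, *Pde7b*, with 57.35, and *Pde11a*, with 50.01, the lowest score of the list. The *Pde6g* peak lay 8.90 kb past the gene and 1.02 kb from a start of *Nploc4*.

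**Figure D3:**
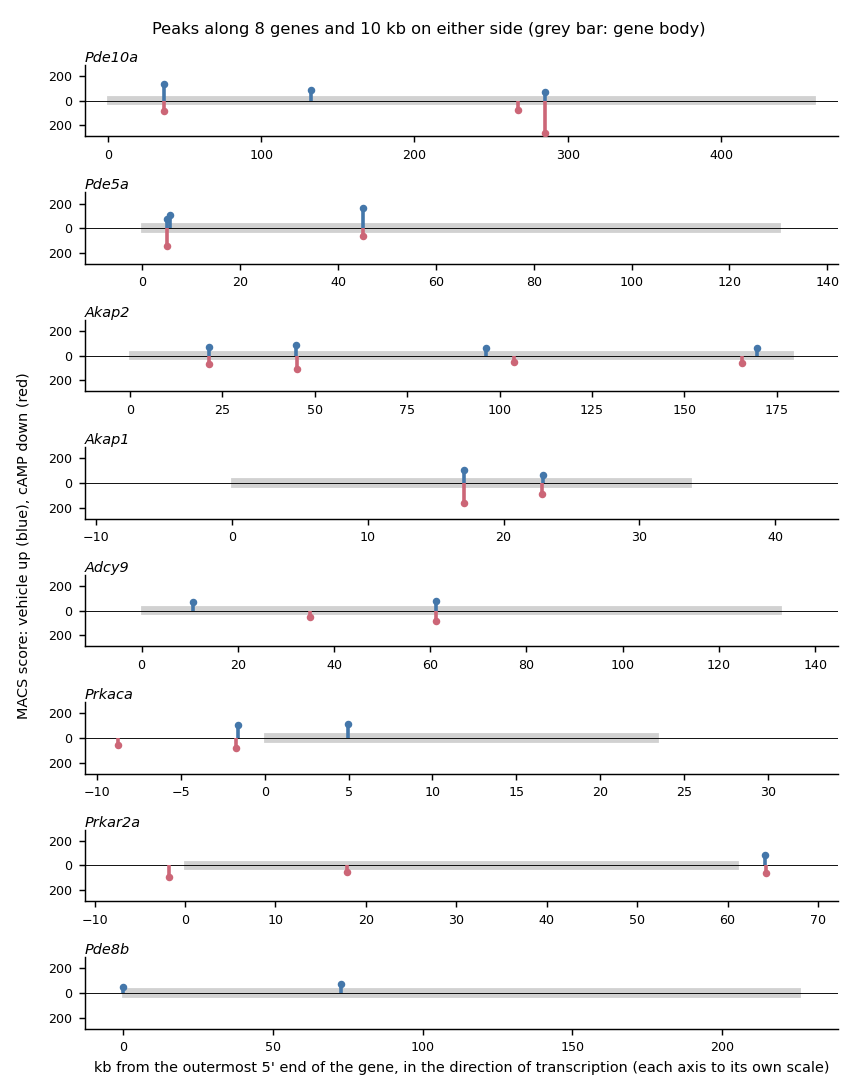
Peaks along 8 genes, each drawn from 10 kb before to 10 kb after its body (grey bar), with distance in kb from the outermost 5′ end (horizontal axis, own scale per gene) and MACS score (vertical axis), upwards for vehicle in blue and downwards for cAMP in red. *Pde10a* shows 134.27 in vehicle and 84.23 in cAMP at its first site and 70.61 and 266.21 at its last, and *Pde8b* has vehicle peaks only.

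Of the adenylyl cyclases, *Adcy7*, a membrane cyclase stimulated by Gs, had the highest score. Its site in intron 12, chr8:88315964-88316625, scored 182.68 in vehicle and 116.98 in cAMP, above 93.1% and 84.1% of the lists. The site was described because of its high scores, which by itself favours unequal scores. *Adcy9*, a cyclase known for its weak response to forskolin, had 3 sites, all in intron 2. The shared site scored 75.29 in vehicle and 84.72 in cAMP and lay 60.2 kb after the start. A vehicle peak of 67.25 lay 9.76 kb after the start and a cAMP peak of 54.94 lay 34.0 kb after it, each with no peak over it in the other list. *Adcy3* had a vehicle peak of 102.70 in the 3′ UTR exon, which overlaps the end of *Cenpo*, and it held no consensus copy. This peak lay 78.85 kb from the nearest *Adcy3* start but 3.54 kb from a *Cenpo* start. *Adcy10*, the soluble cyclase, had a cAMP peak of 60.33 in intron 30, also without a copy.

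The genes of the PKA holoenzyme had peaks at the catalytic subunit *Prkaca* and at 3 of the 4 regulatory subunits. *Prkaca* had a site upstream of its start, 1.59 kb away in vehicle and 1.69 kb in cAMP, which scored 104.90 and 77.76. In vehicle, a second peak of 112.68 lay in intron 1, 1.08 kb after a start, and was the highest-scoring of the 17 sites of the vehicle list only. It held no full consensus, and the 7-base core CAAGGTC lay 254 bp from its centre, near the edge of the peak. In cAMP, a peak of 59.86 lay 8.72 kb upstream, inside the neighbouring gene *Asf1b*, likewise with the core alone.

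*Prkar2a*, the type II alpha regulatory subunit, had 1 vehicle peak and 3 cAMP peaks. The site in both lists lay 3.06 kb past the end of the gene and scored 82.37 in vehicle and 61.72 in cAMP. The start nearest to that site was that of *Ip6k2*, 30.3 kb away, against 36.6 kb for *Prkar2a*. A peak of 92.33, 1.81 kb before a start, was the highest-scoring of the 15 sites of the cAMP list only, and a further one of 57.14 lay in intron 1. *Prkar1b*, the type I beta subunit, had 2 peaks in each list and none of them overlapped. They scored 90.12 and 56.10 in vehicle, the former 2.02 kb past the gene, and 56.20 and 59.73 in cAMP. The start nearest to the peak of 90.12 was that of *Pdgfa*, 17.9 kb away, against 97.4 kb for *Prkar1b*. *Prkar2b*, the type II beta subunit, had 59.64 in vehicle, 2.82 kb after its start in intron 1. *Prkar1a* and the second catalytic gene *Prkacb* had no peak, and the nearest lay 28.8 kb and 643.68 kb away.

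Among the anchors, *Akap10*, which binds both types of regulatory subunit, held the highest vehicle score of the 56 genes. Its site upstream of the start, chr11:61930801-61931526, scored 204.82 in vehicle and 94.95 in cAMP, and the peak centres lay 0.939 and 0.793 kb from the start. *Akap1*, which tethers PKA to the outer mitochondrial membrane, was listed with the higher score in cAMP at both of its sites. In intron 1, about 4 kb after the nearest *Akap1* start, the scores were 110.05 in vehicle and 159.53 in cAMP, with 2 consensus copies. In intron 2 they were 65.36 and 91.13, with no consensus copy and with the AP-1 sequence. The *Akap10* and *Akap1* sites were described because of their high scores, which by itself favours unequal scores.

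*Akap2* had 6 sites along 179.33 kb, and all also lay within the overlapping readthrough gene *Pakap*, so the gene they belong to cannot be told apart. The 2 sites in both lists scored 88.40 and 69.96 in vehicle and 108.91 and 65.25 in cAMP. The others scored 65.75 and 64.22 in vehicle and 50.65 and 59.70 in cAMP, with the nearest peaks of the other list 3631 to 6996 bp away. Each of the 6 sites held a consensus copy. *Akap8l* had a site in both lists in intron 2, with 75.65 in vehicle and 67.20 in cAMP. *Akap7*, a short membrane anchor, had 86.07 in vehicle in intron 1. The gene of the nuclear anchor *Akap8* lies beside *Akap8l*, and a cAMP peak of 52.56, 3.25 kb upstream of *Akap8* and in intron 12 of *Akap8l*, was counted at both. *Akap8* had another cAMP peak of 50.50 in its 3′ UTR exon.

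**Figure D4:**
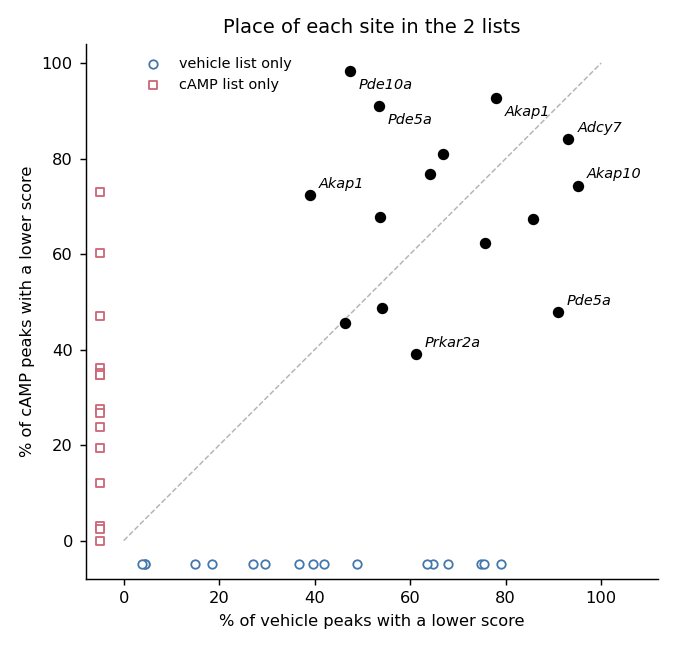
Percentage of vehicle peaks (horizontal axis) and of cAMP peaks (vertical axis) that scored lower than each site, for the 15 sites in both lists (black, those far from the dashed line of equal place or above 90% named) and, along the margins, the sites of 1 list only (open symbols). *Pde10a* intron 1 lies at 47.4% and 98.4% and *Pde5a* intron 3 at 90.9% and 47.8%, on opposite sides of the line.

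Across the 15 sites in both lists, 8 had the higher score in vehicle and 7 in cAMP, against 61.1% higher in vehicle among the 2167 vehicle peaks of the whole list that overlapped a cAMP peak. The phosphodiesterases had 2 such sites higher in vehicle and 3 in cAMP, the anchors had 3 and 3, the cyclases 1 and 1, and both PKA sites were higher in vehicle. At these genes, 4 of 32 in vehicle (12.5%) and 2 of 30 in cAMP (6.67%) had their centre no more than 1 kb from a protein-coding start, against 14% and 11.7% of the peaks within 10 kb of any protein-coding gene. Of the RefSeq promoters (250 bases before to 50 after a start), 45 of the 56 genes were matched with 87 entries, of which 8.05% held the Ad4BP/SF-1 consensus and 2.30% the full CRE, against 5.73% and 1.79% of all 32851 entries. Some entries of the same gene overlap: the consensus was at 5 genes, with 3 of the entries at *Pde8b*, and the CRE at 1, *Prkar1a*.

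No peak was found at 31 of the 56 genes. These were 6 adenylyl cyclases (*Adcy1*, *Adcy2*, *Adcy4*, *Adcy5*, *Adcy6* and *Adcy8*), *Prkacb* and *Prkar1a*, 10 anchors (*Akap3*, *Akap4*, *Akap5*, *Akap6*, *Akap9*, *Akap11*, *Akap12*, *Akap13*, *Akap14* and *Akap17b*) and 13 phosphodiesterases (*Pde1b*, *Pde1c*, *Pde2a*, *Pde3a*, *Pde3b*, *Pde4b*, *Pde4c*, *Pde4d*, *Pde6b*, *Pde6c*, *Pde6d*, *Pde7a* and *Pde9a*). Their median length of 88.2 kb was close to the 91.6 kb of the genes with a peak. *Pde4d*, a cAMP-specific enzyme whose gene spans 1503.51 kb, the longest of the 56, had its nearest peak 56.0 kb away in vehicle. The genes nearest to the window's edge on the outside were *Pde1c*, with a cAMP peak 14.2 kb away, *Akap6*, with one 18.1 kb away, and *Pde9a*, with a vehicle peak 20.2 kb away. The peaks farthest from a gene that still counted were those of *Pde6g* at 8.90 kb and *Prkaca* at 8.72 kb.

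Other genes of the cAMP pathway, a list of 30 receptors, G proteins, sensors, inhibitors, coactivators and dampers, had a peak at 8 genes in vehicle (26.7%), at 3 in cAMP (10.0%) and at 9 in either (30.0%), against 19.3%, 13.9% and 23.1% of all genes. With a median length of 65.1 kb these genes are long too, and the shares of their own length classes gave 7.80, 5.99 and 9.44 genes. *Gnai3*, an inhibitory G protein, scored highest, with 101.24 in vehicle and 122.91 in cAMP. *Atf1*, a CREB relative, was also in both lists, with 53.66 and 60.60. The CREB coactivators *Crtc1*, *Crtc2* and *Crtc3* had vehicle peaks of 63.18, 81.98 and 59.20 and no cAMP peak. Of the PKA inhibitor genes, *Pkig* had up to 96.91 in vehicle, *Pkia* had 73.95 in cAMP and *Pkib* had no peak. The exporter *Abcc4* and the G-protein regulator *Rgs2* had 51.47 and 50.49 in vehicle. The luteinising hormone receptor *Lhcgr*, the stimulatory G protein *Gnas* and *Creb1* had no peak within 10 kb in either list.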

How the data were processed

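Ad4BP/SF-1 ChIP-seq of mouse Leydig cells was available as 1 deposited peak list per condition (vehicle, cAMP). The authors mapped reads to mm10 with Bowtie (0.12.8 in the submitters' processing notes) and called peaks with MACS without model building; whether input served as control is not stated. The deposited score of each peak is the MACS score, and depth is unknown.

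Peaks were read as 1-based intervals and assigned to a gene when at least 1 bp lay in the GENCODE M21 gene body or 10 kb on either side. A peak at several genes was counted at each, but once among the peaks. Location refers to the gene's principal transcript. Motifs were searched on both strands of the RefSeq GRCm38.p6 genome. Overlap of lists needed 1 bp. Shares have exact binomial and densities exact Poisson intervals. With 1 library per condition no test was run. Other windows, scores, overlaps, motif forms and equal list lengths were tried as alternatives. The rule for genes described peak by peak named the 5 with the most peaks, of which ties at 4 peaks were all kept, and those of the 10 highest-scoring peaks of each list; other genes with a peak are named with their scores. Choice by a high score in 1 list by itself favours unequal scores between the lists. The genes and lists were chosen with earlier results of these data known. Python 3.11.15, numpy 2.4.6, pandas 2.3.3, scipy 1.17.1 and pysam 0.24.0 were used, and the scripts were tested on simulated data.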

Additional observations from a re-analysis of the deposited data

How the results depend on the processing

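Of the alternative values, 125 stayed within 1.5 times the reported count or density, or within the interval of the reported share or median, and 49 did not. No paired analysis was possible because each condition had 1 library.

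With windows of 50 kb, genes with a peak rose to 26 in cAMP (46.4%, against 28.8% of all genes) and 19 in both lists, with 64.3% against 43.1% in either list, anchors in either list to 10, peaks to 54 in vehicle and 48 in cAMP, and the other pathway genes to 13, 9, 8 and 14 of 30 (vehicle, cAMP, both, either), where 36.7% of all genes had a vehicle and 28.8% a cAMP peak. With 20 kb the pathway genes were 8 in cAMP and 7 in both lists, and a wider window can only raise such counts. With the gene body alone they were 5 in vehicle, where 12.6% of all genes had a vehicle peak. With the nearest start site, 2 cyclases had a peak. No shares of all genes were computed for 20 kb or the nearest start site, so those counts cannot be set against a background.

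At scores of at least 75, genes with a peak were 10 in cAMP (17.9%, against 6.72% of all genes) and 14 in either list (25%, against 12.6%). Peaks numbered 18 in vehicle and 13 in cAMP (1.83 and 1.32 per Mb), phosphodiesterases with a peak fell to 3, and pathway genes to 3, 1, 1 and 3. The overlapping share of cAMP peaks was 69.2%, and the median scores were 96.41 and 94.95.

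At scores of at least 100, genes with a peak were 7, 5, 4 and 8 (vehicle, cAMP, both, either; 6.62%, 4.01% and 7.82% of all genes in vehicle, cAMP and either), peaks 9 and 5 (0.915 and 0.508 per Mb), the cyclases, phosphodiesterases, PKA subunits and anchors with a peak 2, 2, 1 and 3, and pathway genes 1 in each list, in both and in either. The overlapping share of vehicle peaks was 22.2%, the share of cAMP peaks near a start 0.0% (0 of 5), and the medians were 112.68 and 147.6. The higher score leaves fewer peaks by construction.

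With equal list lengths, 15 genes and 25 peaks were counted in vehicle, against 17 and 30 in cAMP, and 60% of the vehicle peaks overlapped a cAMP peak. Within 5 kb of a start lay 37.5% of the vehicle and 40% of the cAMP peaks. Peak number and score both depend on read depth, which is unknown, and the lists show nothing below their lowest scores.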
